A study of Mus musculus with 26 samples.

Results

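The 5′ end fragments of tRNAs other than tRNA-Gly and tRNA-Glu were followed across 26 small RNA libraries of the mouse hippocampus. They were the rows of the table of short RNAs that are annotated to a tRNA of the GtRNAdb database and named as its 5′ end, without those of glycine and glutamate. This rule took 48 of 1360 entries, under 21 labels: 18 amino acids, selenocysteine (SeC), a suppressor tRNA (Sup) and a tRNA of undetermined type (Undet). An entry pools all sequences assigned to the 5′ end of the tRNAs that share an anticodon, and is named here by amino acid and anticodon, so that Lys-CTT is the 5′ end of the lysine tRNA with anticodon CTT. Each entry has a parent, the entry of the whole tRNA with the same match to the genome, which also holds the counts of its ends. Reads of a tRNA that match no genomic position are entries of their own, outside the parent of a matched end. The small RNA libraries were size-selected, so a parent holds sequenced short reads. A share of the parent is a share of these reads, not of the tRNA in the tissue. Counts are of sequenced fragments, not of bases, so levels were compared between entries without division by length. They are expected counts and can be fractions of a fragment.

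A tRNA brings its amino acid to the ribosome, and its anticodon reads the codon of the mRNA. Ribonucleases such as angiogenin can cut a tRNA in the anticodon loop when cells are stressed, which leaves a 5′ and a 3′ piece, and shorter fragments arise from the ends. Some 5′ fragments have been shown to dampen translation, which is why an acute stressor is a setting in which they are looked for.

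All mice were male C57BL/6J without a transgene named in the labels, aged 2 to 3 months. Swim mice were put into water of 18 °C for 6 min and their tissue was collected 45 mins after the start of the stress, and control mice stayed in the home cage. Tissue of both hemispheres was split into a dorsal part (dHC) and a ventral part (vHC), each sequenced on its own. There were 8 vHC libraries from control mice, and 6 in each of the other groups (swim vHC, control dHC, swim dHC). The labels assign each library to 1 of 3 dated blocks. The study's methods also name 3 batches of library preparation, each with both regions and both conditions, but do not say that the blocks are these batches. Blocks 1, 2 and 3 hold 10, 8 and 8 libraries. Each holds 2 libraries of every group, except that block 1 holds 4 of control vHC. Ranges and medians of the groups are given without correction for block, so those of vHC are not balanced by block. The labels do not say which dHC and vHC libraries came from the same mouse. P-values measure the spread between these libraries.

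Total counts per library were between 502251 and 5380780, and counts of the 48 entries between 1304 and 21614. Control dHC library 24 was the shallowest, and the next lowest total was 1501600. Control vHC library 17 (block 2) had the lowest level of the 48 entries together, 1465 CPM of all counts against 2065 to 4916 in the other 25 libraries. It also had the lowest share of their parents, 15.8%, followed by swim dHC library 6 with 16.3% and control vHC library 1 with 16.5%. Counts above 0 were found for 34 of the 48 entries in library 17 and for 38 in library 24. The miRNAs that mark neurons (mir-124, mir-9 and mir-128) summed to between 136949 and 304104 normalized CPM (counts scaled to the library size by TMM), and those of the choroid plexus, a tissue next to the hippocampus, to between 1619 and 4529. These are bulk samples, in which fewer cells of a type and less RNA per cell cannot be told apart.

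The 48 entries held 24.3% of all tRNA 5′ end counts, and the 6 entries of glycine and glutamate held 3.12 times as many counts. Lysine and valine made up most of the 48. The 2 lysine entries held 45.1% of their counts and the 3 valine entries 25.5%, followed by leucine with 9.22% (5 entries), serine with 3.93% (5), aspartate with 3.61% (1) and alanine with 3.56% (4). The 10 most abundant entries held 85.1%. Lys-CTT alone held 32.1%, and its mean level was 1152 ± 428 normalized CPM (SD, n = 26). Val-CAC followed with 469 ± 122, Lys-TTT with 450 ± 138, Val-AAC with 236 ± 57, Val-TAC with 198 ± 77, Leu-CAG with 171 ± 51 and Asp-GTC with 129 ± 39. The remaining tested entries lay between 62.7 (Leu-CAA) and 2.64 (Phe-GAA). Ahead of these came Ala-AGC with 75.7 ± 18.9, Ser-GCT with 72.6 ± 16.1 and Tyr-GTA with 68.3 ± 15.4. The differences between Val-CAC and Lys-TTT and among Ala-AGC, Ser-GCT and Tyr-GTA were smaller than these SDs.

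At the other end, 11 entries did not pass the filter on low counts (about 10 counts at the median depth in as many libraries as the smallest group has). They were Ala-GGC, Cys-ACA, His-GTG matched to no genomic position, Pro-AGG, Pro-CGG, Pro-TGG, Ser-GGA, Sup-TTA, Thr-AGT, Thr-CGT and Undet. Together they held 0.223% of the counts, with means of at most 4.21 counts per library, and Cys-ACA was at 0 in 25 of 26 libraries. The other 37 entries were tested. The plot of levels by library shows that they span more than 2 orders of magnitude and that the means of block 1 lie apart from those of blocks 2 and 3 for a few of them.

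**Figure D1:**
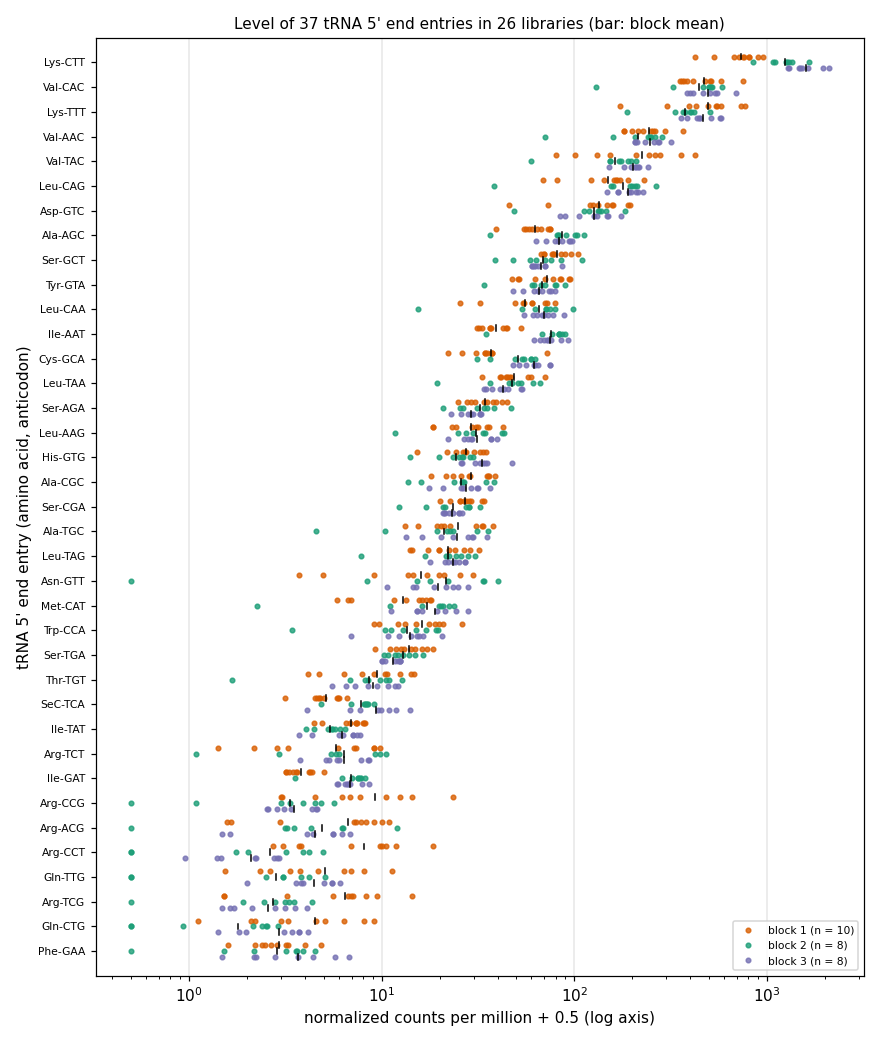
Normalized CPM plus 0.5 (x axis, log scale) of the 37 tested tRNA 5′ end entries (y axis, ordered by mean level) in 26 libraries, with 1 point per library coloured by block and a black bar at each block mean. Lys-CTT lies furthest to the right, with its lowest points in block 1 and its highest in block 3.

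RefSeq (GRCm38.p6) names nuclear tRNA genes by anticodon, and 42 of the 48 entries matched at least 1 gene. The levels did not simply follow these gene numbers. Lys-CTT matched 24 genes on 12 chromosomes and Lys-TTT 2 genes, both on chromosome 13, although the level of Lys-TTT was within a few fold of Lys-CTT. Cys-GCA matched 56 genes, 48 of them on chromosome 6, and had a mean level of 48.3 normalized CPM. Val-CAC matched 11 genes, 5 of them on chromosome 13, and Val-TAC matched 3 genes. Over the 42 matched entries Spearman's rho between gene number and mean level was 0.33, as a description of entries that share libraries and sequences.

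The share of the parent that was 5′ end differed widely between anticodons. Among the 36 entries whose parent had a mean of at least 20 counts it ran from 0.485% for Gln-CTG to 67.8% for Val-TAC, with a median of 16.6%. Above 40% were also Lys-CTT with 45.4%, Val-AAC with 43.6% and Val-CAC with 42.9%. Serine and alanine covered a wide range within the amino acid: Ser-CGA had 38.8%, Ser-GCT 36.8%, Ser-AGA 24.5% and Ser-TGA 12.4%, and Ala-CGC had 32.5%, Ala-AGC 32.4% and Ala-TGC 3.11%. The CCA end is the mature 3′ terminus that carries the amino acid. CCA ends matched to no genomic position are entries of their own, as for Asp-GTC. They were counted neither with the ends nor in the parents of entries matched to the genome. Within this limit, the 5′ end held more of the parent than the 3′ and CCA ends together in 37 of the 48 entries. The reverse held in 11. The split and the CCA percents given here therefore do not cover all CCA ends of a tRNA. For Asn-GTT the CCA end held 25.4% of the parent and the 5′ end 3.02%, and for Gln-CTG the CCA end held 5.04%.

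**Figure D2:**
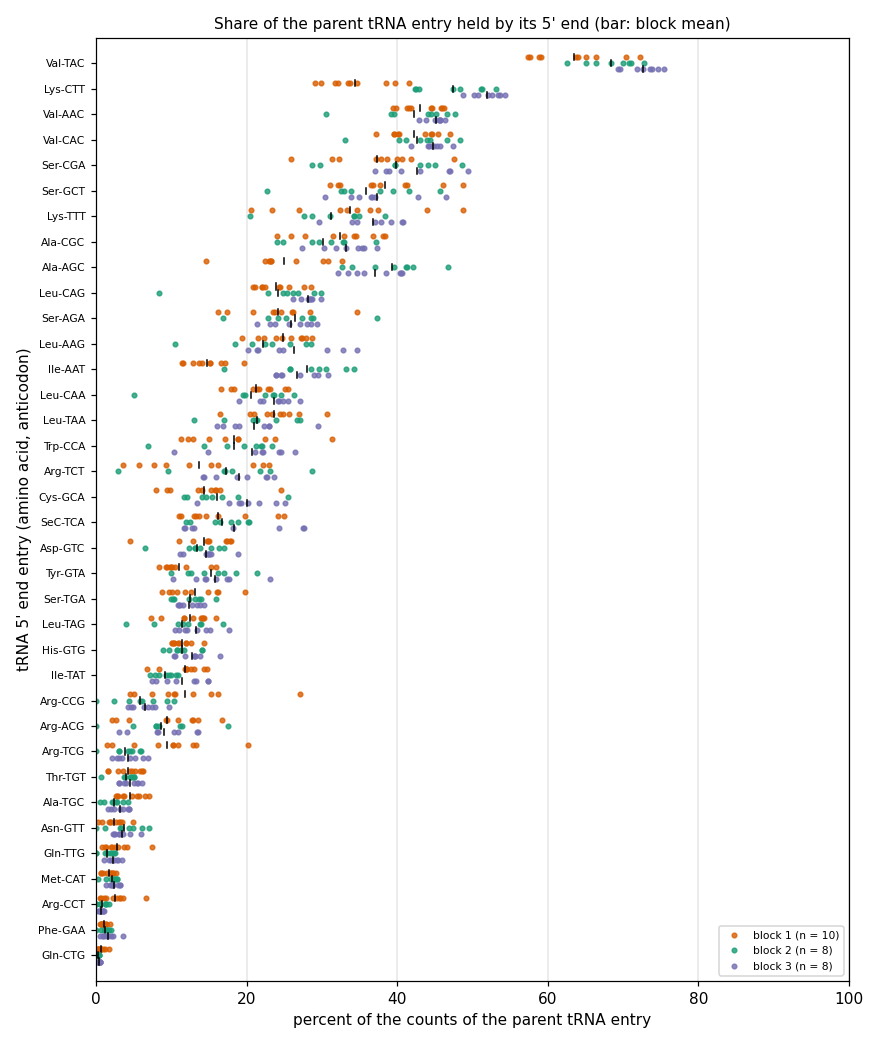
Percent of the parent tRNA entry's counts (x axis) held by the 5′ end for the 36 entries in the share test (y axis, ordered by pooled percent), with 1 point per library coloured by block and a black bar at each block mean. Val-TAC lies highest with a pooled 67.8% and Gln-CTG lowest with 0.485%, and for Lys-CTT and Ile-AAT the points of block 1 lie to the left of nearly all others.

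Entries of the same amino acid were not all separate measurements. The deposited values are expected counts, and 70.1% of the values of the 48 entries were not whole numbers. Among 41 pairs of sister anticodons with at least 1 count in at least 20 libraries, the log2 ratio of 14 varied less between libraries than Poisson counting of separate fragments would give. Ile-AAT was between 11.2 and 12.4 times Ile-GAT in all 26 libraries, with an SD of the log2 ratio of 0.03 where separate counts would give 0.47. The SD was 0.08 against 0.16 for Leu-CAA and Leu-CAG, and 0.12 against 0.29 for Leu-AAG and Leu-TAG. Undet was between 1 and 1.20 times Ala-GGC. It was 0.54 against 0.74 for Arg-CCG and Arg-CCT, 0.60 against 0.78 for Arg-CCG and Arg-TCG, and 0.65 against 0.83 for Arg-CCT and Arg-TCG. The other pairs of this kind were of proline, alanine, leucine, serine and glutamine. The SD was 0.07 of that of counting for Ile-AAT and Ile-GAT, but 0.97 for Leu-TAA and Leu-TAG and 0.99 for Ser-CGA and Ser-TGA. Separate counts can also give values somewhat below 1, and the counting SD is rough for entries with few counts, such as arginine. The levels of entries in the pairs far below 1, and of Undet, are therefore uncertain as values of 1 anticodon. For the other pairs this cannot be told. At the opposite end, Lys-CTT was between 1.05 and 4.55 times Lys-TTT, and the SD of the log2 ratio, 0.61, was 10.2 times that of counting.

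The first comparison asked whether the fragments changed 45 mins after the swim. By edgeR's quasi-likelihood test with 2 surrogate variables, 0 of 37 entries passed an adjusted p of 0.05 for stress in both regions together, where 0 of all 619 entries did (0%). At an unadjusted p under 0.05 there was 1 of 37, and DESeq2 also called 0, with 3 unadjusted. The same count of 0 of 37 held within vHC, within dHC and for the difference between the regions' responses, with 2, 3 and 2 entries at an unadjusted p under 0.05 (3, 2 and 2 by DESeq2, which called 0 in each). The median log2 fold change of the 37 was 0.01 in vHC, where it was -0.05 over all entries tested, and 0.01 in dHC, where it was also 0.01. In vHC 19 entries were above 0 and 18 below, and in dHC 20 and 17. The 95% confidence interval of the fold change lay within 1.5-fold in either direction for 20 entries in vHC and 22 in dHC, and within 2-fold for 35 and 36.

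The 3 most abundant entries did not pass in either region. Lys-CTT ran from 426 to 1960 normalized CPM in vHC of control mice, with a median of 903, and from 718 to 1656 in vHC of swim mice, with a median of 1287. In dHC it ran from 764 to 2092 in controls (median 1203) and from 673 to 1463 after the swim (median 1272). Block 1, in which Lys-CTT was lowest, holds 4 control but 2 swim libraries of vHC. Within blocks 1, 2 and 3 its difference of mean log2(value + 1) in vHC was 0.34, 0.59 and -0.36. The groups overlapped in both regions, with log2 fold changes of 0.39 (95% interval -0.00 to 0.77, adjusted p = 0.668 by edgeR) and -0.10 (-0.52 to 0.31). Val-CAC had the narrower intervals, -0.14 to 0.33 in vHC and -0.21 to 0.30 in dHC. For Lys-TTT they were -0.09 to 0.61 and -0.59 to 0.15.

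The 4 entries with the smallest p for stress were Asn-GTT, Ala-CGC, Ile-AAT and Ser-GCT. Asn-GTT, the asparagine entry, ran from 0 to 24.9 normalized CPM in vHC of control mice, with a median of 17.1, and from 4.46 to 33.2 in vHC of swim mice, with a median of 13.7. In dHC it ran from 7.86 to 22.9 in controls (median 18.9) and from 3.24 to 39.7 after the swim (median 23.9). The groups overlapped in both regions, and the log2 fold change was 0.37 ± 0.24 (SE) in vHC and 0.54 ± 0.25 in dHC, with adjusted p = 0.792 for both together. Without control vHC library 17, in which Asn-GTT was at 0, the vHC value was -0.14. Within blocks the difference of mean log2(value + 1) in vHC was -1.49 in block 1, 2.65 in block 2, which holds library 17, and -0.12 in block 3.

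Ala-CGC ran from 13.3 to 38.3 in vHC of control mice, with a median of 32.5, and from 17.02 to 28.5 in vHC of swim mice, with a median of 22.2. In dHC it ran from 15.5 to 35.8 in controls (median 26.7) and from 20.3 to 37.96 after the swim (median 27.3), so the groups overlapped. Its log2 fold change was -0.35 ± 0.15 in vHC and 0.18 ± 0.16 in dHC, and the difference between them, 0.53 ± 0.22, had an adjusted p of 0.880. Ile-AAT had 0.42 ± 0.17 in vHC and -0.04 ± 0.18 in dHC, and Ser-GCT -0.18 ± 0.11 and 0.20 ± 0.17. For each of these entries the sign within vHC differed between blocks, from -0.75 to 0.19 for Ala-CGC, from -0.25 to 0.72 for Ile-AAT and from -0.37 to 0.26 for Ser-GCT. In the plot of stress differences the intervals of all but 2 entries in vHC and 3 in dHC span 0.

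**Figure D3:**
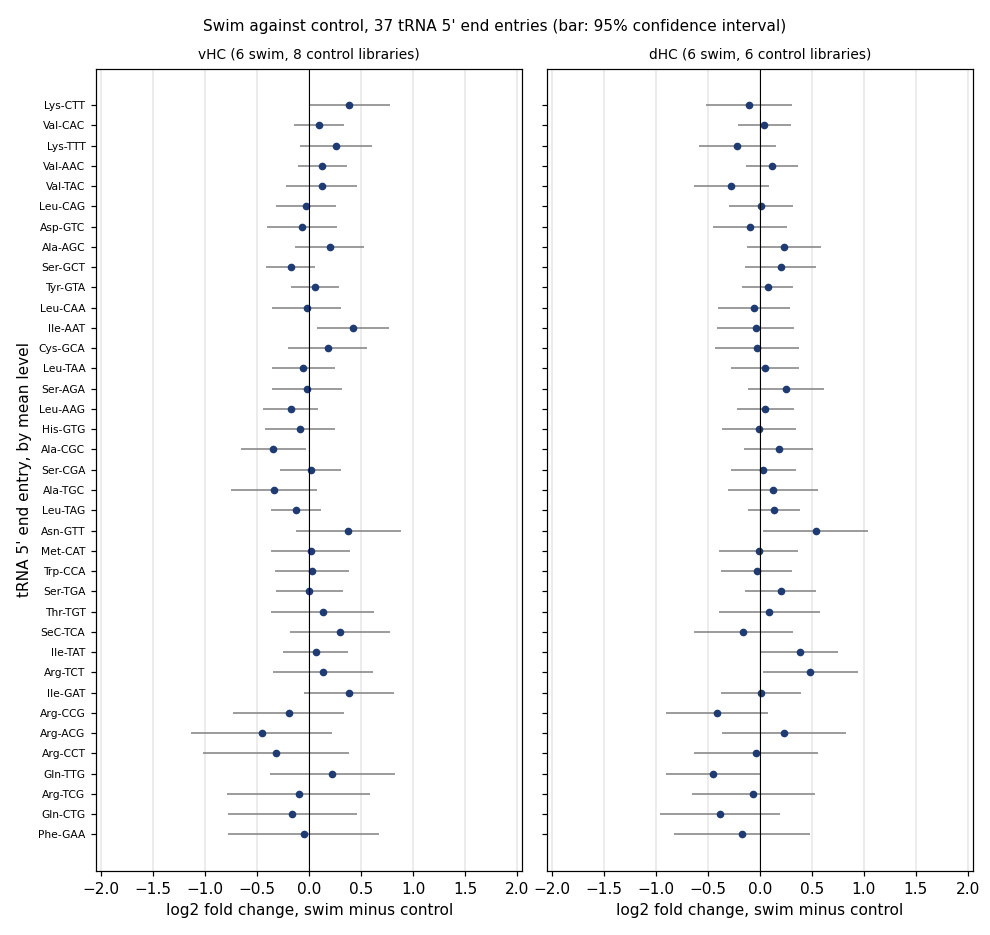
Log2 fold change, swim minus control (x axis), of the 37 tested tRNA 5′ end entries (y axis, by mean level) in vHC and dHC, with points for the edgeR estimate and bars for its 95% confidence interval. In both regions the points scatter around 0, and 0 of 37 entries passed the adjusted threshold.

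The share of the parent asks another question, whether the 5′ end changed relative to the rest of its parent, and needs no library size. It stays the same where an end and its parent change together. Its fit held block in place of surrogate variables. By limma on the log2 odds of end against remainder, 0 of 36 entries passed for stress in vHC or in dHC, where 0 of 67 end entries of all tRNAs did (0%). At an unadjusted p under 0.05 there were 0 of 36 in vHC and 1 in dHC. The 3 with the smallest p in vHC were Ser-CGA, Ala-CGC and Leu-CAG. Ser-CGA held 25.9% to 49.4% of its parent in vHC of control mice (median 36.1%) and 37.1% to 47.6% in vHC of swim mice (median 42.97%), with adjusted p = 0.859. Leu-CAG had a mean of 23.7% ± 7.0 (SD, n = 8) in vHC of controls and of 26.6% ± 2.8 (SD, n = 6) after the swim. Library 17 stood at 8.29%, and without it the log2 odds difference fell from 0.28 to 0.00. In dHC the 3 were Gln-CTG, Arg-TCG and Ser-AGA. Gln-CTG held 0.647% ± 0.581 (SD, n = 6) in controls and 0.311% ± 0.228 (SD, n = 6) after the swim, a log2 odds difference of -1.04 ± 0.50 with adjusted p = 0.947. Arg-TCG had -0.87 ± 0.50 and Ser-AGA 0.33 ± 0.21. A two-sided exact permutation test of the mean percent, adjusted over 67 end entries, called 0 of 36 in vHC, where the smallest p that it can give is 0.000333. It permutes libraries across blocks and so takes no account of block. In dHC the smallest p is 0.00216, at which no entry could pass alone after adjustment over 67, so that test says nothing there.

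The second comparison set dHC against vHC, with block as a term. In control mice 0 of 37 entries passed, where 94 of 619 entries did (15.2%), and after the swim 0 of 37 passed, where 85 of 619 did (13.7%). Most of those that passed were miRNAs, 91 of 461 in controls and 80 of 461 after the swim. Whole tRNA entries passed in 1 of 80 in each condition, and glycine and glutamate 5′ ends in 0 of 6. For CCA ends it was 1 of 17 in each, and for 3′ ends 0 of 8 in controls and 2 of 8 after the swim. A low rate was thus not particular to the 37. At an unadjusted p under 0.05 there were 1 and 0, and DESeq2 called 0 in both, with 2 and 1 unadjusted. The median log2 fold change was 0.04 in controls and 0.14 after the swim, beside -0.00 and 0.03 over all entries tested. In controls 21 of the 37 were above 0 and 16 below, and after the swim 32 and 5, beside 331 and 288 of all entries after the swim. These entries share libraries and in part sequences, so the split was not tested. The 95% interval lay within 2-fold for 28 entries in controls and 27 after the swim, and reached past 2-fold for the rest. The summed oligodendrocyte markers (mir-219a and mir-338) had a median of 5376 normalized CPM in control dHC and 3759 in control vHC.

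Trp-CCA had the smallest p. In controls it ran from 10.7 to 25.5 normalized CPM in dHC, with a median of 19.4, and from 2.93 to 19.4 in vHC, with a median of 13.7. After the swim it ran from 11.7 to 19.1 in dHC (median 16.2) and from 8.59 to 14.6 in vHC (median 11.02). The medians were higher in dHC in both conditions and the ranges overlapped in both. The log2 fold change was 0.59 ± 0.25 in controls with adjusted p = 0.105 and 0.50 ± 0.26 after the swim with adjusted p = 0.227. On the log2(value + 1) scale dHC lay above vHC in each block, by 0.50, 1.21 and 0.74 in controls and by 0.67, 0.38 and 0.40 after the swim.

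Trp-CCA was also first by share. In controls it held 24.2% ± 3.9 (SD, n = 6) of its parent in dHC against 15.3% ± 5.5 (SD, n = 8) in vHC, a log2 odds difference of 0.88 ± 0.25 with adjusted p = 0.0578 by limma, so that 0 of 36 entries passed, as did 0 of 67 (0%). It passed without control vHC library 9 (adjusted p = 0.0295) or library 31 (0.0481), and without library 17 the difference was 0.71 with adjusted p = 0.153. The two-sided exact permutation p, which takes no account of block, was 0.00633, and 0.424 after adjustment over 67 end entries. After the swim the means were 21.3% ± 3.3 and 16.8% ± 4.6 (SD, n = 6 each). Next by share came Gln-CTG with 0.94 ± 0.47 and Ser-AGA with -0.38 ± 0.20.

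Gln-TTG, Arg-CCG and Arg-CCT followed for the level in controls, with log2 fold changes of 0.70 ± 0.35, 0.68 ± 0.36 and 0.69 ± 0.38 and adjusted p of 0.180, 0.208 and 0.229. Control dHC library 8 was the highest control for all 3, at 10.8, 22.96 and 17.9 normalized CPM, where the medians of control dHC were 4.77, 3.601 and 2.55. Without it the values were 0.41, 0.20 and 0.27. The region result changed with the covariates and with the filter. With 2 surrogate variables in place of block, of which the second shared 50.8% of its variance with region, 21 of 37 entries were called in controls (24.6% of all entries) and 16 after the swim (23.3%), all lower in dHC, and Trp-CCA turned to -0.31. With no filter on low counts 4 were called in controls, Trp-CCA, Gln-TTG, Arg-CCG and Arg-CCT (9.5% of 1327 entries), and 1 after the swim, Arg-ACG (6.33%), all higher in dHC.

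**Figure D4:**
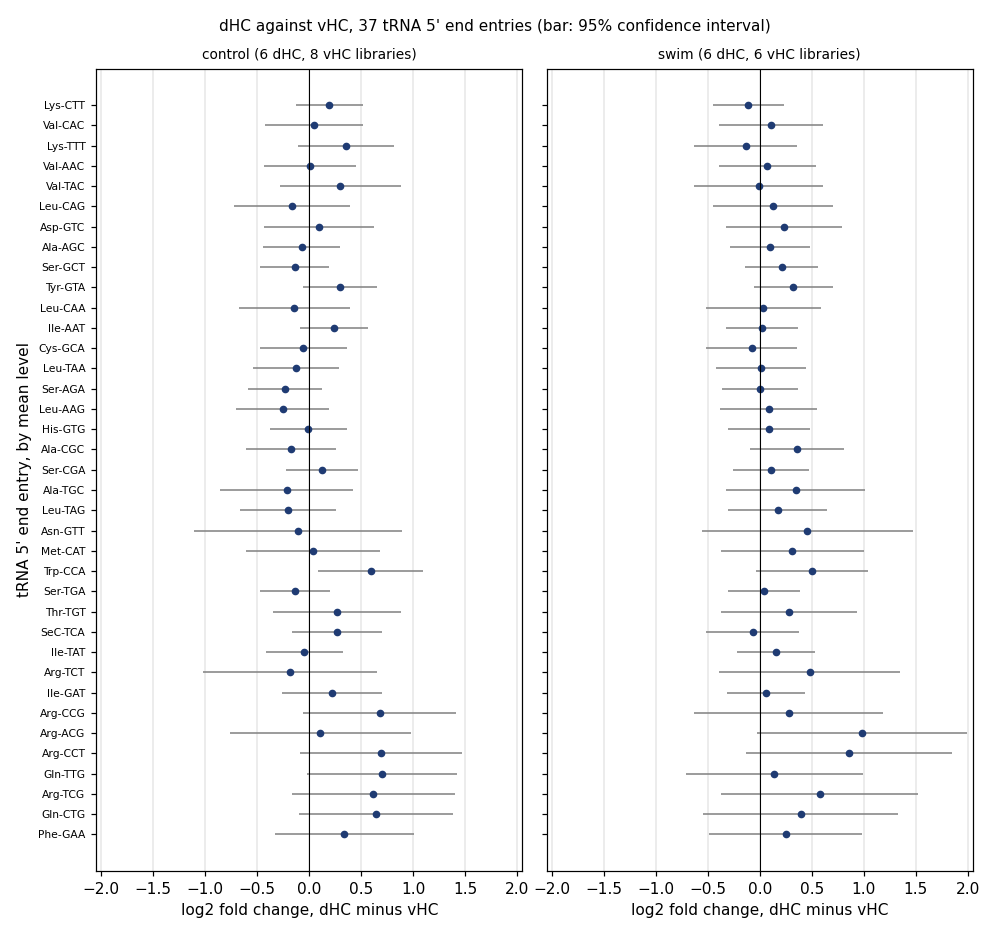
Log2 fold change, dHC minus vHC (x axis), of the 37 tested tRNA 5′ end entries (y axis, by mean level) in control and in swim mice, with points for the edgeR estimate with block as a term and bars for its 95% confidence interval. Trp-CCA lies above 0 in both panels (0.59 and 0.50), and 0 of 37 entries passed the adjusted threshold in either.

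The blocks differed more than the conditions did. By edgeR 11 of 37 entries (29.7%) passed for block, where 288 of all 619 did (46.5%). Of the miRNAs 228 of 461 passed (49.5%), of the whole tRNA entries 27 of 80 and of the glycine and glutamate 5′ ends 2 of 6 (33.3%). CCA ends passed in 8 of 17 (47.1%) and 3′ ends in 5 of 8 (62.5%). The share among the 37 was thus below that of the table, but near that of the whole tRNA entries. Of the 37, 11 passed between blocks 2 and 1 (6 higher, 5 lower in block 2, with 47.7% of all entries), 9 between blocks 3 and 1 (6 higher, 3 lower in block 3, with 42.8%) and 0 between blocks 3 and 2 (0%). Block 1 was thus the one that stood apart. Lys-CTT, Ile-AAT, Ile-GAT, SeC-TCA, Cys-GCA and Ala-AGC were higher in blocks 2 and 3, and Arg-CCT, Arg-TCG and Arg-CCG were lower in both. Gln-CTG and Ile-TAT were lower in block 2. Ile-GAT, with its nearly fixed ratio to Ile-AAT, is no separate entry in this count. The ratios of the 3 arginine entries varied only somewhat less than counting gives, so it cannot be told whether these entries are separate from each other. With 3 other scalings of the libraries (DESeq2 size factors, TMMwsp and miRNA library size) 10, 11 and 10 of the 11 were still called. The directions were the same, but the median block difference over all entries lay between -0.06 and -0.01 in all of these fits, so the scalings differed too little to turn one.

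Lys-CTT, the most abundant entry, was between 426 and 955 normalized CPM in block 1 (median 758), between 852 and 1656 in block 2 (median 1264) and between 1285 and 2092 in block 3 (median 1505). All libraries of block 3 lay above all of block 1. The log2 difference to block 1 was 0.73 ± 0.14 in block 2 and 1.11 ± 0.14 in block 3, with adjusted p = 1.59e-06 for block. The mean was higher in block 3 than in block 1 in each group, at 1795 against 665 in control vHC, 1393 against 807 in swim vHC, 1810 against 785 in control dHC and 1374 against 739 in swim dHC. Lys-TTT did not pass, with adjusted p = 0.171. It was between 173 and 771 in block 1 (median 519), between 187 and 508 in block 2 (median 387) and between 357 and 579 in block 3 (median 447). The count ratio of Lys-CTT to Lys-TTT was 1.05 to 2.46 in block 1, 2.96 to 4.55 in block 2 and 2.90 to 3.99 in block 3, without overlap between block 1 and the others. The ratio of the 2 parents also differed, with 1.28 to 1.80, 2.08 to 2.31 and 2.19 to 2.70.

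Ile-AAT was between 30.7 and 52.2 in block 1 (median 36.2), between 34.5 and 89.4 in block 2 (median 82.6) and between 61.6 and 91.8 in block 3 (median 72.2). The value of 34.5 in block 2 belonged to library 17, and the other 7 libraries of that block lay above all 10 of block 1. Its log2 difference to block 1 was 0.92 ± 0.14 in block 2 and 0.92 ± 0.14 in block 3. Cys-GCA was higher by 0.52 ± 0.18 and 0.76 ± 0.18, SeC-TCA by 0.64 ± 0.19 and 0.88 ± 0.18 and Ala-AGC by 0.47 ± 0.16 and 0.43 ± 0.16.

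Of the 5 arginine entries 3 were lower in blocks 2 and 3. Arg-CCT was between 2.24 and 17.9 in block 1 (median 7.87), between 0 and 4.46 in block 2 (median 2.11) and between 0.449 and 2.43 in block 3 (median 1.71), with log2 differences of -1.60 ± 0.37 and -2.23 ± 0.38. Arg-TCG had -1.47 ± 0.37 and -1.58 ± 0.36, and Arg-CCG -1.29 ± 0.35 and -1.46 ± 0.35. The other 2 did not pass, with -0.41 ± 0.40 and -0.63 ± 0.39 for Arg-ACG and 0.12 ± 0.36 and 0.06 ± 0.35 for Arg-TCT. These are low entries, with means of 11.2 to 16.95 counts per library for the 3 that passed. Gln-CTG had -1.25 ± 0.36 in block 2 and -0.77 ± 0.33 in block 3, and Ile-TAT -0.50 ± 0.16 and -0.21 ± 0.16.

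By share of the parent, 6 of 36 entries passed for block (16.7%), where 15 of 67 end entries did (22.4%). Lys-CTT held 29.01% to 41.5% of its parent in block 1, 42.4% to 53.2% in block 2 and 48.7% to 54.3% in block 3, so that block 1 did not overlap with the others. Its log2 odds against block 1 were 0.78 ± 0.11 and 1.04 ± 0.11, with adjusted p = 1.86e-07 by limma. Ile-AAT held 11.4% to 19.6% in block 1, 16.9% to 34.3% in block 2 and 23.9% to 30.8% in block 3, so that blocks 1 and 2 overlapped and blocks 1 and 3 did not. Ala-AGC held 14.6% to 32.7% in block 1, 32.6% to 46.8% in block 2 and 32.2% to 40.7% in block 3. Val-TAC was higher by 0.32 ± 0.12 and 0.61 ± 0.12 and Tyr-GTA by 0.53 ± 0.20 and 0.59 ± 0.20, although neither passed for its level. All 48 entries together held a median of 21.3%, 24.3% and 26.98% of their parents in blocks 1, 2 and 3, while the entries of glycine and glutamate held 60.5%, 58.4% and 60.1% of theirs. Arg-CCT was lower by share as well, at -1.48 ± 0.45 and -1.64 ± 0.45.

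Other measures moved with block. The rRNA entries had a median of 4.13%, 5.49% and 6.48% of all counts in blocks 1, 2 and 3. The summed microglia and immune cell markers (mir-142, mir-223 and mir-150) had medians of 1953, 1183 and 1180 normalized CPM, and the endothelial marker mir-126 had 6400, 7225 and 8761. Their part in the differences between blocks was not tested.

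**Figure D5:**
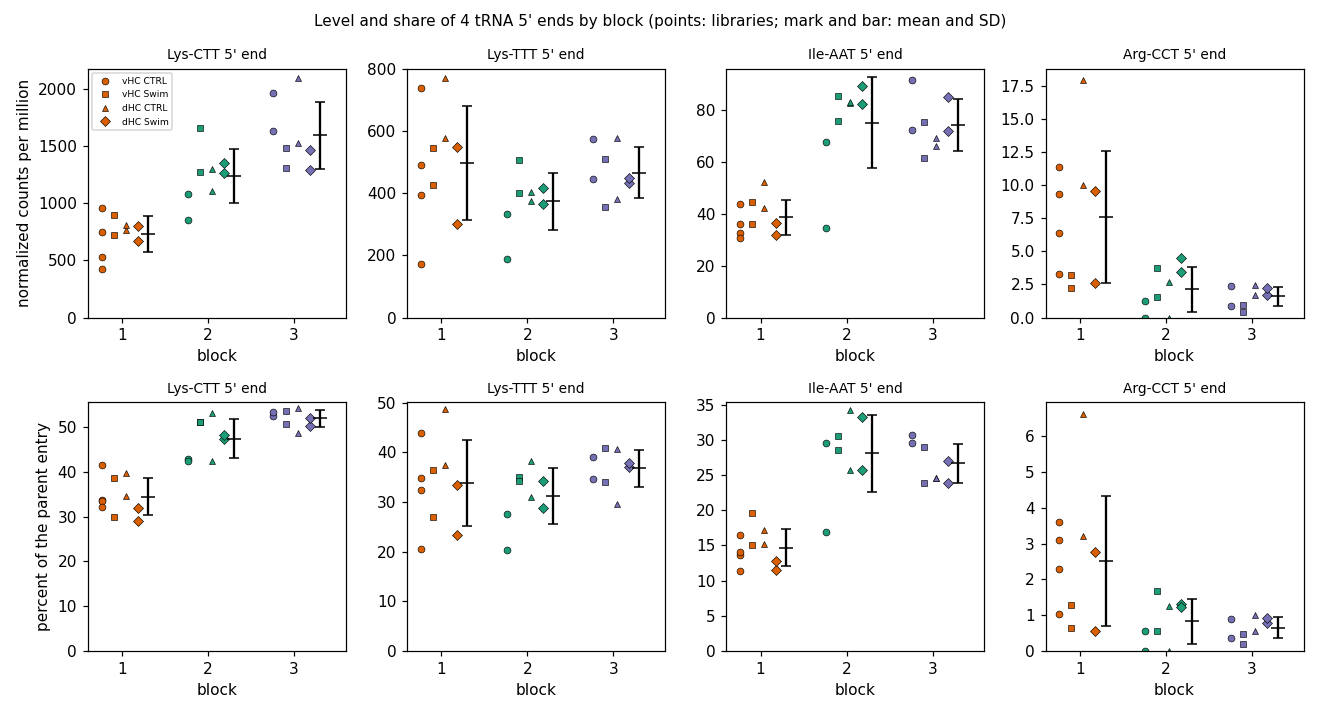
Normalized CPM (top row) and percent of the parent entry (bottom row) of Lys-CTT, Lys-TTT, Ile-AAT and Arg-CCT (y axes from 0) in blocks 1, 2 and 3 (x axes), with 1 point per library shaped by group and the mean and SD of each block beside it. Lys-CTT and Ile-AAT lie lower in block 1, Arg-CCT lies higher there, and Lys-TTT overlaps between the blocks.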

How the data were processed

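Small RNA was measured in 26 libraries, grouped by region, stress and block from the labels. The table had 0 columns without a matching sample, and no columns were identical. Adapter trimming by the authors used cutadapt, followed by collapsing of molecular tags and annotation in Sports. The deposited table gives expected counts for each annotated RNA, not normalized, and the labels name GRCm38. The design assumed whole counts, so these were rounded for edgeR, sva and DESeq2.

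The 48 entries and the lists of markers were chosen with earlier results of these data known. Library size was the sum over entries that are not tRNA ends, scaled by TMM. Normalized CPM divide by it. Entries were filtered with filterByExpr (minimum count 10, minimum total 15), which left 619. Quasi-likelihood fits in edgeR 4.0.16 held region, stress and their interaction, with 2 surrogate variables (sva 3.50.0) for stress and with block for region and block. Standard errors were set so as to give the reported p. Shares of the parent were tested in limma 3.58.1 on log2((end + 0.5)/(parent - end + 0.5)) with block, for 67 end entries whose parents had a mean of at least 20 counts. Adjustment was by Benjamini-Hochberg over all entries of a fit. The rule named 10 entries by level, 4 by p in each of the tests for stress, region and block, and 3 by p in each share test. Further entries named for block, for levels or for shares were chosen after their values were seen. R 4.3.3, DESeq2 1.42.0 and Python 3.11.15 were used, and fits were tested on simulated data. Spreads and intervals cover these libraries only. Mature tRNA sequences were not used here.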

Additional observations from a re-analysis of the deposited data

Results flagged for a closer look

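Of 88 sets of values (22 named entries in 4 groups), 8 held a library far from the others of its group, where chance gives about 1 in 20. In control vHC, library 17 (block 2) was lowest for Leu-CAG with 37.9 normalized CPM, where the next was 165, and for Asn-GTT with 0, where the next was 13.97. In swim dHC, library 6 (block 1) was lowest for Leu-CAG with 68.0, where the next was 167, and library 22 (block 2) was highest for Ser-GCT with 109, where the next was 76.1. Swim dHC library 16 (block 1) was highest for Arg-CCG with 7.25 (next 4.11), for Arg-CCT with 9.52 (next 4.46) and for Arg-TCG with 8.99 (next 3.84). Swim vHC library 5 (block 1) was highest for Arg-TCG with 6.44 (next 2.28).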

How the results depend on the processing

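Stress calls remained at 0 of 37 levels and 0 of 36 shares under all alternatives run and without each library. With 2 surrogate variables in place of block, 21 entries were called for region in controls and 16 after the swim, and Trp-CCA, Gln-TTG, Arg-CCG and Arg-CCT reversed to -0.31, -0.93, -0.91 and -1.40. With no filter 4 and 1 were called. For the share of the parent, a pseudocount of 2 called 1 entry for region, and precision weights called 12 for block. Without single libraries, region in controls gave 0 to 1 calls (1 without control vHC library 13), region by share 0 to 1 (1 without library 9 or 31), block 9 to 13 and block by share 5 to 10 (10 without control vHC library 23). Among named entries not past the threshold, Ile-AAT in dHC turned to 0.022 without surrogate variables (-0.12 to 0.10 without single libraries). Asn-GTT in vHC turned to -0.12 with block in place of surrogate variables (-0.14 to 0.56 without single libraries). Without libraries 17 and 24 together, chosen after seeing the data, Asn-GTT in vHC was -0.13, the share of Leu-CAG in vHC was -0.00628, and 13 entries by level and 9 by share were called for block. The cause of these changes was not tested. No paired analysis was run because no library number is shared between groups and the labels do not say which libraries came from 1 mouse. Many neighbouring numbers, such as 13 and 14, are a vHC and a dHC library of the same condition and block. They may come from 1 mouse, while the fits treated all libraries as independent. Low depth limits the arginine, glutamine and phenylalanine entries most, where standard errors of the stress log2 fold change reached 0.35.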
